A study of Homo sapiens with 20 samples.

Results

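The 38 genes described here encode proteins of the centromere and kinetochore, the assembly that links each chromosome to spindle microtubules in mitosis, with the chromosomal passenger and shugoshin proteins that act beside it. They are a named list, grouped here by known role, and each was measured by its brightest array feature annotated to that gene alone. Of the 38, 37 could be measured, out of 18417 genes tested. CENPA, the centromeric form of histone H3, lay only on a feature annotated to several genes and was not analysed here. LNCaP cells, an established androgen-responsive prostate cancer line, were profiled on 20 arrays in 7 groups, to compare androgen-treated cells held at different points of the cell cycle. Arrest in early G1 used PD-0332991, an inhibitor of the cyclin D-dependent kinases, at 0.5 µM for 24 h (3 arrays). Late G1 used roscovitine (5 µg/mL, 24 h, 3 arrays), which inhibits a range of cyclin-dependent kinases. Early S used aphidicolin, which blocks the replicative DNA polymerases (2 µg/mL, 24 h, 2 arrays), and late S used hydroxyurea (1 mM, 24 h, 3 arrays), which starves replication of deoxynucleotides. G2/M used 2 µg/mL aphidicolin for 15 h, a washout, and then the microtubule poison nocodazole at 50 ng/mL for 9 h (3 arrays). All 5 arrests were in hormone-proficient medium and received dihydrotestosterone (DHT, 10 nM) for the last 3 h. The CDT + DHT group had 72 h in CDT medium, an abbreviation the labels do not expand, and 3 h of DHT (3 arrays). The CDT group had 72 h in CDT medium and 3 h of ethanol (3 arrays). An arrest and the CDT group therefore differ in drug, DHT and medium together, and an arrest and the CDT + DHT group in drug and medium, and these cannot be told apart. The stages are those of the labels, and a drug and its stage cannot be told apart either.

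The kinetochore is built on chromatin that carries CENP-A. An inner network of CENP proteins sits on that chromatin all through the cell cycle, and an outer network of KNL1, the MIS12 complex and the NDC80 complex is loaded onto it for mitosis and binds microtubules. The RZZ complex, CENP-E and CENP-F form the corona of unattached kinetochores, where MAD2 and BUB3 take part in the spindle assembly checkpoint. The SKA complex strengthens attachment to microtubules. The chromosomal passengers INCENP, survivin and borealin place the Aurora B kinase at the centromere, and shugoshins protect centromeric cohesion. Many of these genes are known to be transcribed most strongly in late S, G2 and mitosis and repressed in quiescent cells, through promoter elements such as the cell cycle genes homology region (CHR), bound by complexes that contain the MuvB core, and the CCAAT box, bound by NF-Y.

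All levels are log2(intensity + 1) and all differences are log2 differences of group means on that scale, with the standard error (SE) of limma's fit. Adjusted p-values are limma's, corrected over the whole table by Benjamini and Hochberg's method, and a member is called past the threshold when its adjusted p is under 0.05. The labels do not say that replicates are separate cultures, so p-values measure the spread between arrays only, which may be technical, and the number of arrays limits the precision. Array medians of the deposited intensities ran from 5.44 to 9.08, and array means of all genes tested from 3.11 to 3.87. Of 9 markers of luminal prostate cells, 7 were measured and 6 lay above the median gene, with KLK3 and KLK2 among them. The basal, stromal and leukocyte lists had 3 of 4, 6 of 6 and 4 of 5 genes measured. Of these, 2, 3 and 1 lay above the median gene. The log2 of their summed intensity was 3.51 to 5.82, 5.07 to 6.84 and 4.21 to 5.77 over all arrays, against 8.73 to 11.5 for the luminal list. The basal list was at 3.51 to 4.54 in G2/M and at 4.76 to 5.06 in late G1, and the stromal list at 5.07 to 5.27 in G2/M, below all other arrays, and at 5.43 to 5.92 in late G1. The part of these lists in the results was not tested. CCNB1, the cyclin that drives entry into mitosis, averaged 8.46 ± 0.16 in G2/M, above all other arrays. In late G1 it averaged 5.59 ± 0.35, below all other arrays (SD, n = 3 each). The cell cycle genes CDK1 and CCNA2 overlapped more between groups. CDK1 read 2.36, 2.95 and 2.92 in late G1. Early G1 replicate 2 was lower, at 1.75, and so were CDT + DHT replicates 2 and 3, at 2.35 and 2.03. CDK1 read 6.47, 4.73 and 6.23 in G2/M, with late S replicate 2 above, at 6.78. CCNA2 read 2.20, 3.17 and 0.01 in late G1, overlapping early G1 replicate 2 (1.42) and late S replicate 1 (0.03). That range also held CDT replicate 1 (0.25) and CDT + DHT replicates 1 and 3 (3.08 and 3.10). TOP2A was below all other arrays in late G1, at 1.90, 2.21 and 0.19. No detection calls were used, so a value near 0 is only a dim one. The mean level of 14 members lay below that of the median gene, and levels of different genes are not set against each other, since features differ in response.

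Across the 37 members the late G1 arrays stood lowest. The mean over the members was 2.96, 2.40 and 2.59 on the late G1 arrays, and lay between 3.05 and 5.11 on the other 17 arrays. By group it was 4.11 ± 0.89 in early G1 and 2.65 ± 0.29 in late G1, then 4.39 ± 0.55 in early S (n = 2), 4.14 ± 0.94 in late S, 4.59 ± 0.12 in G2/M, 3.59 ± 0.49 in CDT + DHT and 3.56 ± 0.54 in CDT (SD, n = 3 otherwise). The 3 G2/M arrays lay close together, at 4.48, 4.58 and 4.72, and their range was overlapped by early G1, early S and late S arrays. These are averages over the cells of a culture, so fewer cells that carry a transcript and less transcript per cell cannot be told apart. Within groups some arrays stood apart, and 4 of them were known to from earlier results of these data. Of these 4, early G1 replicate 2, late S replicate 1, CDT + DHT replicate 3 and CDT replicate 1 were the lowest of their groups for 28, 29, 28 and 21 of the 37 members, against 51.2%, 55.9%, 57.8% and 37.2% of all genes. Other arrays stood apart for the members too: late S replicate 2 was the highest of its group for 31 members (50.7% of all genes), early S replicate 1 the lower of 2 for 30 (51.4%) and G2/M replicate 2 the lowest for 19 (24.4%). Counts are given with and without the 4 arrays where they differ by over 1.5 times.

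**Figure D1:**
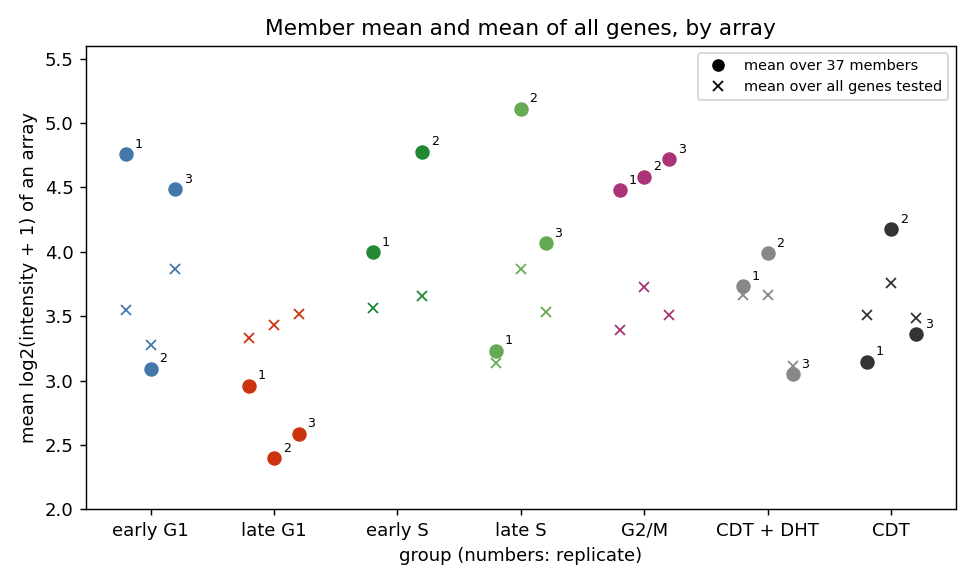
Mean log2(intensity + 1) of each array over the 37 members (circles, numbered by replicate) and over all genes tested (crosses), by group. The late G1 arrays have member means of 2.96, 2.40 and 2.59, below the 17 other arrays, while their means over all genes lie within the range of the other arrays.

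The late G1 arrest had the lowest mean of the 7 groups for 22 of the 37 members, against 19.7% of all genes, and the highest for 0. The G2/M arrest had the highest mean for 14 members, against 13.4% of all genes. Early S was highest for 10 (19% of all genes), late S for 6 (13.4%), early G1 for 3 (8.22%), CDT + DHT for 3 (18.0%) and CDT for 1 (15.2%). Against the mean of the other 4 arrests, late G1 had lower means for 36 of 37 members, against 55.3% of all genes. The member median was -1.78, against -0.09 over all genes. MIS12 was the member without a lower mean, with a difference of 0.03 ± 0.46. In that comparison 7 members passed the threshold, all lower in late G1, where 0.69% of all genes did. They were BIRC5, CENPW, SPC24, SPC25, CENPM, CENPE and SKA1. Of these, CENPM, CENPE and SKA1 had mean levels below that of the median gene. There were 22 members lower and 0 higher at an unadjusted p under 0.05, against 7.7% and 2.84% of all genes. All 3 late G1 arrays lay below the 11 other arrest arrays for 6 of the 37 members (16.2%), against 1.28% of all genes, and below the 17 other arrays for 4 (10.8%), against 0.706%. The count was 4 without late G1 replicate 1, 3 without late G1 replicate 3 and between 5 and 10 without any other single array. Without the 4 arrays it was 19, where 2.2% of all genes passed in either direction, but 2 of the 4 are arrays of the other arrests on which most members read lowest, so that leaving them out raises the means set against late G1. With a pseudocount of 16 the member median was -0.64.

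**Figure D2:**
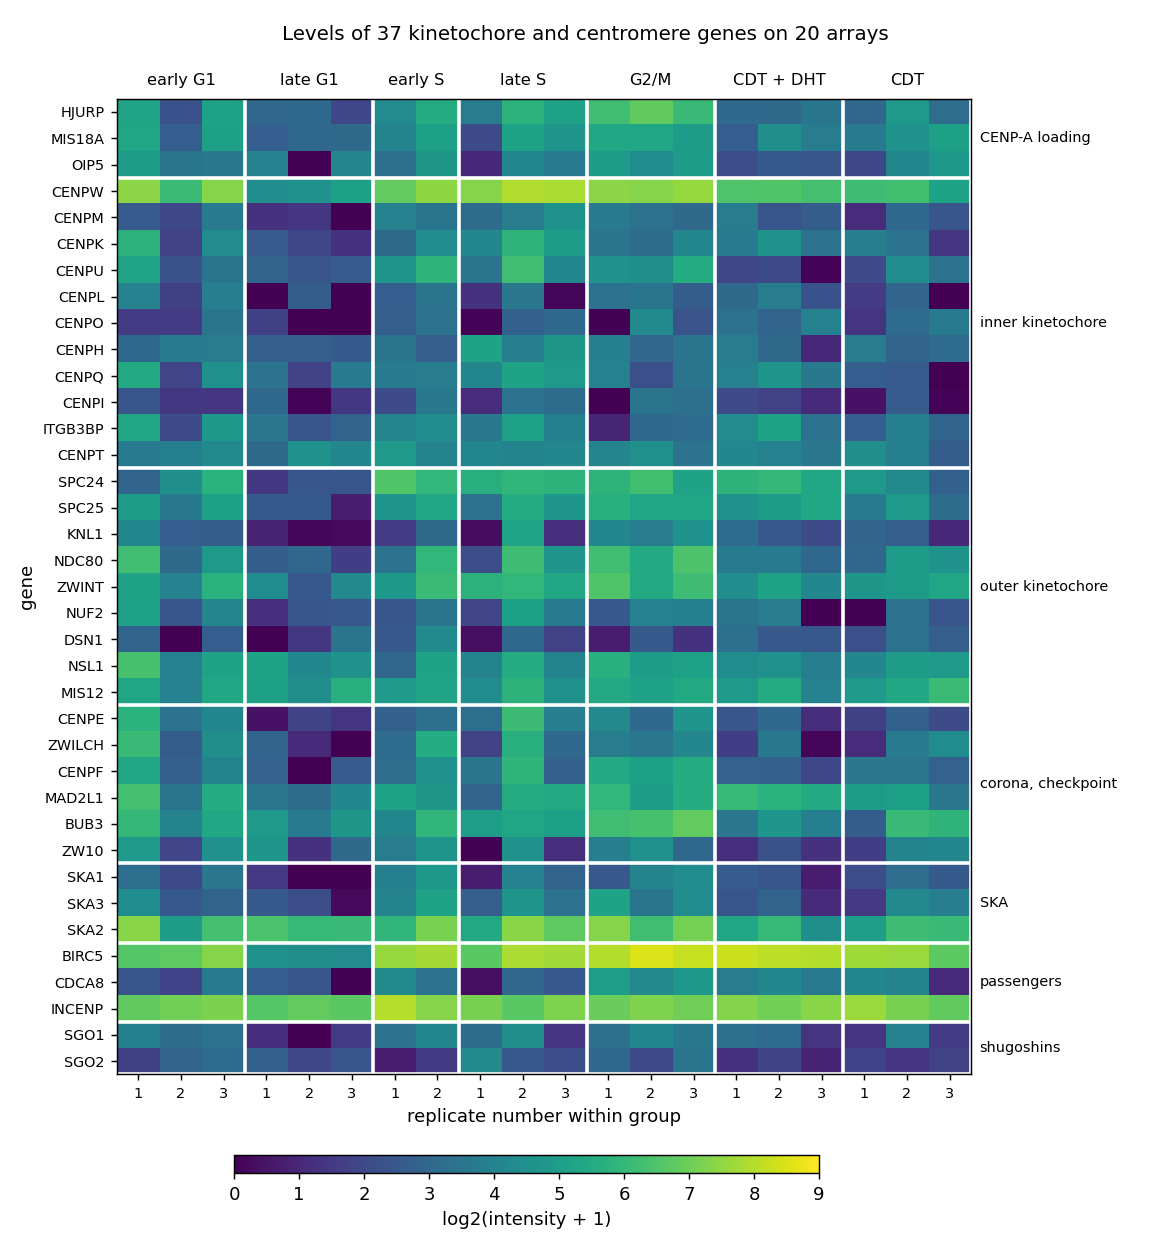
Levels of the 37 measured members, log2(intensity + 1), one row per gene grouped by role and one column per array grouped by treatment (number: replicate). Each row is read along the arrays. In 22 rows late G1 has the lowest group mean, and the early G1 replicate 2 and late S replicate 1 columns are the darkest of their groups for 28 and 29 rows.

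**Figure D3:**
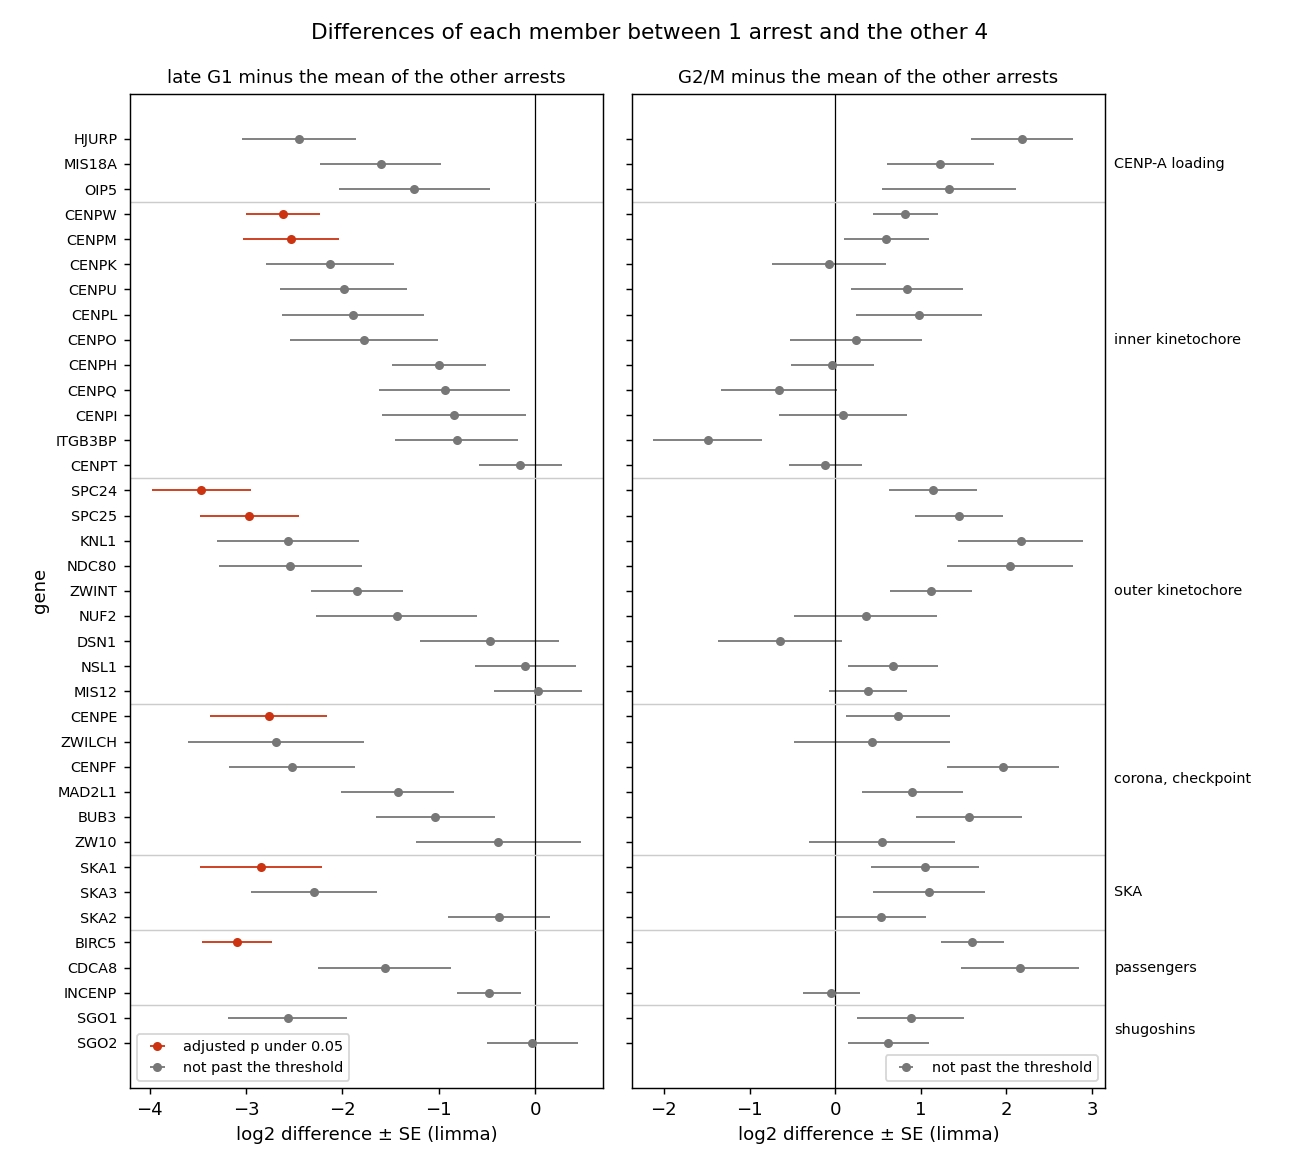
Log2 difference of each member between late G1 (left) or G2/M (right) and the mean of the other 4 arrests, with limma's SE as bars. On the left 36 of 37 points lie below 0 and the 7 in red passed the threshold. On the right, where late G1 is among the other arrests, 30 points lie above 0 and none passed.

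Promoter windows were found in RefSeq (GRCh38.p14) for 31 of the 38 genes, 34 windows in all, each from 250 bases before the annotated start to 50 bases from it. BIRC5, BUB3, CENPH, CENPL, CENPM, KNL1 and MIS18A had none in the table. The windows shown are those of the 6 members with the smallest p among the arrests for which the table has one, because each passed the threshold with late G1 lower, against the other arrests or against G2/M, and their windows differ in which elements they hold. Capitals mark matches, on either strand, to the CHR (TTTGAA or TTCGAA), to CCAAT and to 2 E2F motifs (TTCCCGC and TTGGCGC), and the printed strand is that of the gene. TTCGAA reads the same on both strands and was counted once. SPC24 is at chr19:11155733-11156032 (minus strand), CENPW at chr6:126339865-126340164 (plus), SPC25 at chr2:168890381-168890680 (minus), HJURP at chr2:233854486-233854785 (minus), CENPE at chr4:103198294-103198593 (minus) and SKA1 at chr18:50374796-50375095 (plus).
SPC24: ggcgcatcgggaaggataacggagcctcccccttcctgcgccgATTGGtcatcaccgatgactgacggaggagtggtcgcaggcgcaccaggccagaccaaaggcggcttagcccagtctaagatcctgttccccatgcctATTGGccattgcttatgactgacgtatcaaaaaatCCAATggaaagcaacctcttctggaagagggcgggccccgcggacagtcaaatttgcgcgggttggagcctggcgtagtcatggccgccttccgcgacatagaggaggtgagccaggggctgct
CENPW: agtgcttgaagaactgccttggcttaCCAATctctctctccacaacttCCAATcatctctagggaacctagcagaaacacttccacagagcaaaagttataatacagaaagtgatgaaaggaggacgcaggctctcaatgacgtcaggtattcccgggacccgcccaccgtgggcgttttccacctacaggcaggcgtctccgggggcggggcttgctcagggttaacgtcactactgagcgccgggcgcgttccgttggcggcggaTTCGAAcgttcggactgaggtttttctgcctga
SPC25: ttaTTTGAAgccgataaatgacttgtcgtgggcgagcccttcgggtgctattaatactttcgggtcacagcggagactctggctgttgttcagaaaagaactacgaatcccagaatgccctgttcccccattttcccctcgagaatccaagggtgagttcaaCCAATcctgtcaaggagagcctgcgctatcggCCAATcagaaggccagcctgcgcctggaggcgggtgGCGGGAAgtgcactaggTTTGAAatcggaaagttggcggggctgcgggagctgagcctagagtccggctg
HJURP: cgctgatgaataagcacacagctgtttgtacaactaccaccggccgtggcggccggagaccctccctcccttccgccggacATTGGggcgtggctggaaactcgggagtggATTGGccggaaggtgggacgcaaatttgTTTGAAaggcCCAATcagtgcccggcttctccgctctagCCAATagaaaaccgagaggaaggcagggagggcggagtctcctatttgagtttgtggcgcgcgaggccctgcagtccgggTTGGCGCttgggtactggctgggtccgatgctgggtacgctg
CENPE: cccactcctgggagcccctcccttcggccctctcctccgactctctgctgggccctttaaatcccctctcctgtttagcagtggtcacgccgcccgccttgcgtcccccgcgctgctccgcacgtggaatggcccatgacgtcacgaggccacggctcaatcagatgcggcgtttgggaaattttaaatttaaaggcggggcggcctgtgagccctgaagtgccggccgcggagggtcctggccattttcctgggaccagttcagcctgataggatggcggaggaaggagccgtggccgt
SKA1: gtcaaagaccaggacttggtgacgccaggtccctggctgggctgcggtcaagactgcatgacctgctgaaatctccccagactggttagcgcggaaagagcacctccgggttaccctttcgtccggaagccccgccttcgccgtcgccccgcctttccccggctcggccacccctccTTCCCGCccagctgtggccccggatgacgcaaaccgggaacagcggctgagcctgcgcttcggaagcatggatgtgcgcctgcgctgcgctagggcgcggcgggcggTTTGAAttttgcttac
Positions are those of the first base of a match, with 0 at the annotated start and upstream positions negative. The SPC25 window holds a CHR at -3 and another at -247, with 2 CCAAT boxes and 1 E2F match between them. CENPW has a CHR at 17 and 2 CCAAT boxes far upstream, at -224 and -202. HJURP has 4 CCAAT boxes, from -169 to -72, around a CHR at -111, and an E2F match at 8, and SKA1 has a CHR at 34 and an E2F match at -73. SPC24 holds 3 CCAAT boxes and no CHR by these letters, and CENPE holds no match to any of the motifs.

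Over the 34 windows, 18 (52.9%) held a CHR, against 16.4% of the 35116 windows in the table and 13.7% of the 22199 windows of coding genes. Counted from 100 bases upstream to the window's end, 16 windows (47.1%) held one, against 7.37% and 5.81%. A CCAAT box was in 23 windows (67.6%), against 34.6% and 34.7%. An E2F match was in 10 (29.4%), against 9.23% and 11.5%. Both a CHR and a CCAAT box were in 12 of the 31 genes: CDCA8, CENPA, CENPF, CENPW, HJURP, INCENP, MAD2L1, OIP5, SGO1, SPC25, ZW10 and ZWINT. The 16 measured genes with a CHR had a median difference of -2.07 between late G1 and the other arrests, and the 14 without one a median of -0.83. Both sets ranged widely, from -2.96 to -0.38 with a CHR and from -3.46 to 0.03 without one. For the CCAAT box the medians were -1.85 with a match (19 genes) and -1.44 without (11). For E2F they were -1.85 with a match (7 genes) and -1.56 without (23). The 7 genes without a window are in none of these sets, and BIRC5 and CENPM, which passed in late G1, are among them. A match is a run of letters, not a shown binding site, and the gene sets were not tested against each other.

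**Figure D4:**
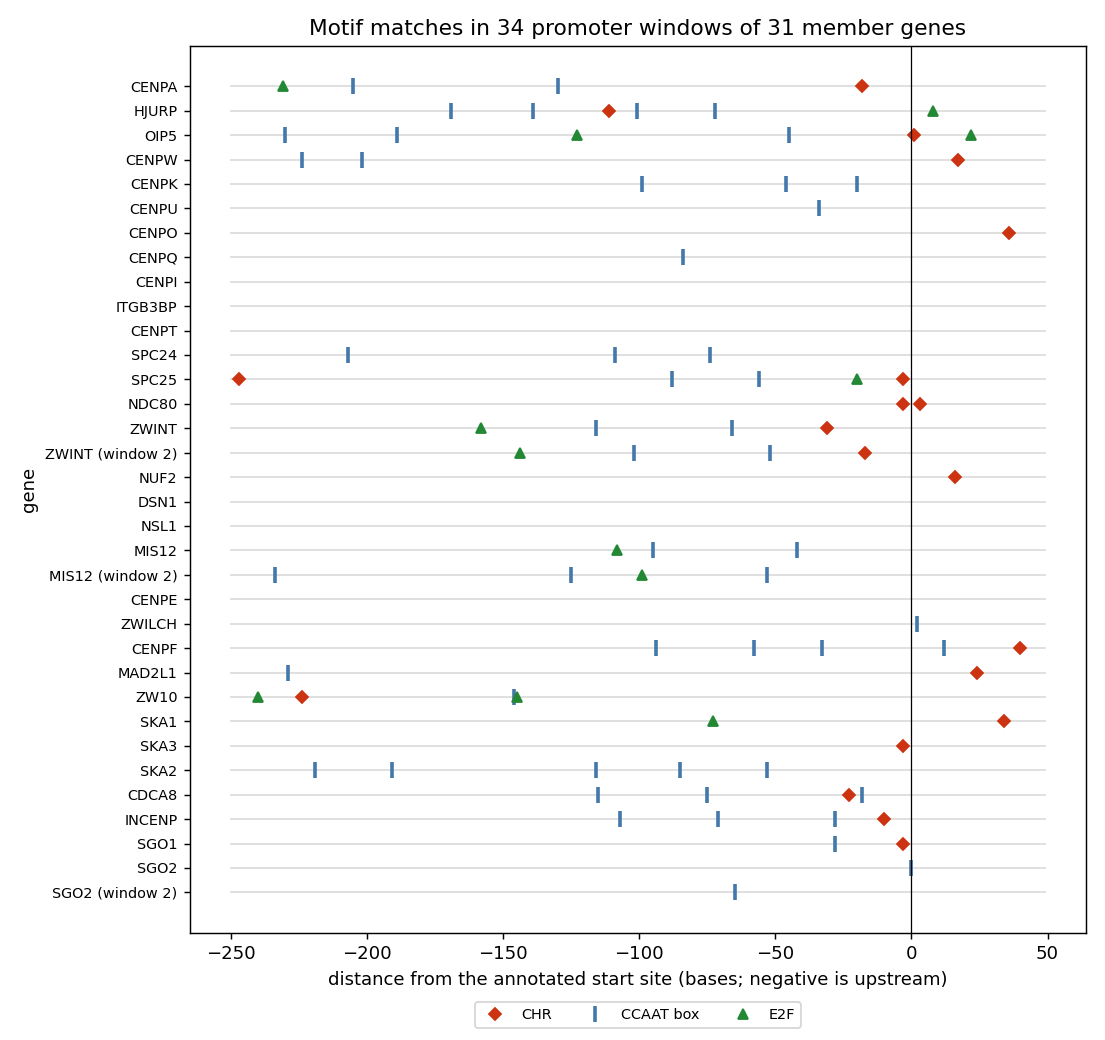
Positions of CHR (diamonds), CCAAT box (bars) and E2F (triangles) matches in 34 RefSeq promoter windows of 31 member genes, by distance of the first base of the match from the annotated start in bases. CHR matches were found in 18 windows and CCAAT boxes in 23, and the windows of CENPE, CENPT, CENPI, DSN1, ITGB3BP and NSL1 hold none of the 3.

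The NDC80 complex is the main microtubule-binding rod of the outer kinetochore, and its SPC24 and SPC25 subunits dock it to the MIS12 complex. SPC24 read 1.45, 2.39 and 2.42 on the late G1 arrays. It read 2.90, 4.50 and 5.75 in early G1, 6.55 and 5.95 in early S, 5.66, 5.94 and 5.82 in late S and 5.84, 6.28 and 5.20 in G2/M. The CDT + DHT arrays gave 5.81, 6.0 and 5.39 and the CDT arrays 4.86, 4.28 and 2.80. Each late G1 array was below each of the other 17, with early G1 replicate 1 and CDT replicate 3 the nearest. Late G1 differed from the other arrests by -3.46 ± 0.52 (SE, adjusted p = 0.00208), which is 11-fold lower on the log2(intensity + 1) scale. The size of such folds depends on the pseudocount where a gene is dim, and with 16 the SPC24 difference was -1.74, still past the threshold. SPC24 also passed between the 5 arrests in limma's F test (adjusted p = 0.0185), where 0.255% of all genes did. It did not pass the F test when any 1 of the late G1 arrays was left out, with adjusted p of 0.135, 0.0756 and 0.0835 without replicates 1, 2 and 3.

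SPC25 gave 2.56, 2.54 and 0.72 in late G1. The levels were 4.96, 3.63 and 5.08 in early G1, 4.72 and 5.31 in early S, 3.38, 5.58 and 4.74 in late S and 5.73, 5.33 and 5.33 in G2/M. In CDT + DHT they were 4.61, 4.90 and 5.38, and in CDT 3.70, 4.83 and 3.19. All 3 late G1 arrays again lay below the 17 others, with replicate 3 the lowest and CDT replicate 3 the nearest above. The difference from the other arrests was -2.96 ± 0.52 (SE, adjusted p = 0.00725), and without late G1 replicate 3 it was -2.36 with an adjusted p of 0.107. It was -1.25 with a pseudocount of 16, and passed. NDC80, the subunit that gives the complex its name and carries its microtubule-binding head, read 2.64, 2.97 and 1.66 in late G1, 6.25, 3.11 and 4.84 in early G1, 3.43 and 5.96 in early S and 2.12, 6.20 and 4.69 in late S. Its G2/M arrays gave 6.25, 5.52 and 6.49, the CDT + DHT arrays 3.68, 3.67 and 3.05 and the CDT arrays 2.97, 4.90 and 4.59. The G2/M values overlapped the highest early G1, early S and late S arrays, and the late G1 values overlapped late S replicate 1 and reached CDT replicate 1. NDC80 had a late G1 difference of -2.54 ± 0.74 (adjusted p = 0.144), and NUF2, the partner of NDC80 at that end of the rod, one of -1.44 ± 0.83 (adjusted p = 0.595).

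KNL1 is the outer kinetochore scaffold for the checkpoint, and ZWINT is its partner, which recruits the RZZ complex. KNL1 was at 0.89, 0.17 and 0.24 in late G1, 4.15, 2.71 and 2.66 in early G1, 1.58 and 3.10 in early S, 0.28, 5.26 and 1.22 in late S and 4.20, 3.83 and 4.62 in G2/M. In CDT + DHT it was at 3.16, 2.52 and 2.08, and in CDT at 2.93, 2.71 and 0.99. The late G1 arrays were among the dimmest, but late S replicate 1 lay within their range, and the 3 late S arrays spanned nearly the whole range of the gene. ZWINT read 4.39, 2.48 and 4.25 in late G1, 5.18, 4.0 and 5.75 in early G1, 4.79 and 6.15 in early S, 5.78, 5.96 and 5.38 in late S and 6.57, 5.47 and 6.21 in G2/M. It read 4.43, 5.17 and 4.15 in CDT + DHT and 4.78, 4.90 and 5.28 in CDT. Late G1 overlapped early G1 replicate 2 and CDT + DHT replicate 3, and lay below all CDT arrays. The late G1 differences were -2.56 ± 0.73 for KNL1 (adjusted p = 0.135) and -1.85 ± 0.48 for ZWINT (adjusted p = 0.0900). No gene of the MIS12 complex, the joint between the inner and outer kinetochore, passed, and the differences were 0.03 for MIS12, -0.10 for NSL1 and -0.47 for DSN1, with adjusted p of 0.993, 0.974 and 0.896. DSN1 was dim, and its late G1 arrays ran from 0.01 to 3.47. Of the 9 measured genes of the outer network, 2 passed in late G1, both lower, against 0.69% of all genes.

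In the inner network, CENPW had the smallest p. CENP-W is a histone-fold protein that pairs with CENP-T in a complex that binds DNA at the centromere. Its level was 4.40, 4.61 and 5.12 in late G1. The other arrests gave 7.44, 6.14 and 7.37 in early G1, 6.82 and 7.47 in early S, 7.36, 7.93 and 7.85 in late S and 7.42, 7.37 and 7.57 in G2/M, against 6.54, 6.54 and 6.34 in CDT + DHT and 6.21, 6.28 and 5.24 in CDT. Late G1 lay below the other 17 arrays, with CDT replicate 3 just above the highest late G1 array and early G1 replicate 2 next. The late G1 difference of -2.62 ± 0.38 (SE, adjusted p = 0.00180) is a 6.13-fold lower value on this scale, and it kept an adjusted p of at most 0.0222 without any single array. The F test among the arrests gave an adjusted p of 0.0196. That call was lost, with an adjusted p between 0.0501 and 0.164, when late S replicate 3, G2/M replicate 3 or any 1 late G1 array was left out. CENPT, the partner, differed by -0.15 ± 0.43 (adjusted p = 0.951).

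CENPM is a GTPase-like subunit of the CENP-HIKM complex of the inner network. It gave 1.27, 1.42 and 0.01 in late G1. In early G1 it gave 2.59, 1.96 and 3.66, in early S 3.95 and 3.50, in late S 3.19, 3.77 and 4.61 and in G2/M 3.72, 3.38 and 3.11. The CDT + DHT arrays were at 3.78, 2.32 and 2.65 and the CDT arrays at 1.13, 3.03 and 2.42. Late G1 was below the 11 other arrest arrays and overlapped CDT replicate 1. The difference from the other arrests was -2.53 ± 0.50 (SE, adjusted p = 0.0179). It did not pass without late G1 replicate 1 (adjusted p = 0.0534) or replicate 3 (0.174), or with a pseudocount of 16 (0.0931, difference -0.63). CENPH, CENPI and CENPK, the other subunits, differed by -1.0, -0.84 and -2.13, with adjusted p of 0.487, 0.774 and 0.186. CENPL, which pairs with CENP-N, differed by -1.89 ± 0.74 (adjusted p = 0.339). The genes of the CENP-OPQUR complex, CENPO, CENPQ, CENPU and ITGB3BP (which encodes CENP-R), differed by -1.78, -0.94, -1.99 and -0.81, with adjusted p between 0.222 and 0.733. In all, 2 of 11 inner network genes passed in late G1, both lower, against 0.69% of all genes. All 11 had means below those of the other arrests, against 55.3% of all genes.

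Loading of CENP-A at each exit from mitosis needs its chaperone HJURP, and the MIS18 complex, of which MIS18A and OIP5 are subunits, marks the site. HJURP was highest in G2/M, at 6.24, 6.80 and 6.05. It read 5.24, 2.29 and 5.14 in early G1 and 2.98, 3.09 and 1.90 in late G1, and the S-phase arrests gave 4.33 and 5.52 (early S) and 3.83, 5.78 and 5.16 (late S). The CDT + DHT arrays gave 3.06, 3.10 and 3.49, and the CDT arrays 2.96, 4.88 and 3.20. Each G2/M array was above each array of the 6 other groups, with late S replicate 2 the nearest. G2/M exceeded late G1 by 3.71 ± 0.74 (SE, adjusted p = 0.0239), which is 13.1-fold on this scale, and with a pseudocount of 16 the difference was 2.18. The call was lost when any 1 of the 6 arrays compared was left out, with adjusted p between 0.0541 and 0.133 and differences between 3.33 and 3.92, and in a fit of the 2 groups alone. Late G1 differed from the other arrests by -2.45 ± 0.59 (adjusted p = 0.0653). MIS18A and OIP5 differed by -1.60 and -1.26 in late G1 and by 2.26 and 2.07 between G2/M and late G1, and neither passed.

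CENP-E is the kinesin that carries chromosomes toward the spindle equator, and CENP-F a large coiled-coil protein of the corona. CENPE was at 0.45, 1.85 and 1.34 in late G1. It was at 5.76, 3.43 and 4.12 in early G1, 2.78 and 3.31 in early S, 3.26, 6.16 and 3.85 in late S and 4.25, 3.09 and 4.70 in G2/M, and at 2.39, 3.08 and 1.17 in CDT + DHT and 1.69, 2.81 and 2.06 in CDT. Late G1 lay below all other arrest arrays and overlapped both control groups, and the highest group mean was that of early G1, 4.44 ± 1.20 (SD, n = 3). The late G1 difference was -2.77 ± 0.61 (SE, adjusted p = 0.0366). It did not pass when any 1 of 8 arrays was left out: the 3 late G1 arrays, both early S arrays, early G1 replicate 3, and G2/M replicates 1 and 3. The adjusted p was then between 0.0569 and 0.214, and it was 0.236 with a pseudocount of 16, where the difference was -0.90. The call was also lost with the replicate number as a block and in a fit of the arrests alone.

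CENPF gave 5.51, 5.11 and 5.58 in G2/M. The levels were 5.33, 2.77 and 4.04 in early G1 and 2.83, 0.03 and 2.59 in late G1, then 3.20 and 4.54 in early S and 3.47, 5.88 and 2.77 in late S, with 2.81, 2.80 and 1.96 in CDT + DHT and 3.57, 3.52 and 2.84 in CDT. The G2/M arrays lay above late G1, early S and both control groups, with early G1 replicate 1 within their range and late S replicate 2 above it. The late G1 difference was -2.53 ± 0.66 (adjusted p = 0.0905), and G2/M minus late G1 was 3.58 ± 0.82 (adjusted p = 0.0560), both short of the threshold. ZW10 and ZWILCH, of the RZZ complex, differed in late G1 by -0.38 ± 0.85 and -2.69 ± 0.91, with wide errors and adjusted p of 0.937 and 0.240. MAD2L1, which encodes the checkpoint protein MAD2, differed by -1.43 ± 0.59 (adjusted p = 0.378). BUB3, a partner of the BUB1 and BUBR1 checkpoint proteins, read 6.25, 6.38 and 6.84 in G2/M, above the other arrest arrays, whose highest was 6.0 in early G1. The CDT + DHT arrays reached 4.72 and the CDT arrays 6.10. G2/M minus the other arrests was 1.56 ± 0.61 for BUB3 (adjusted p = 0.867).

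SKA1, a microtubule-binding subunit of the SKA complex, gave 1.51, 0.03 and 0.01 in late G1. Early G1 gave 3.26, 2.01 and 3.56, early S 3.89 and 4.81, late S 0.68, 4.0 and 2.87 and G2/M 2.47, 4.03 and 4.40, against 2.61, 2.41 and 0.72 in CDT + DHT and 2.11, 3.23 and 2.54 in CDT. Late S replicate 1 fell within the late G1 range, and late G1 also overlapped CDT + DHT replicate 3. The difference between late G1 and the other arrests was -2.85 ± 0.63 (SE, adjusted p = 0.0381). It passed in 4 of the 14 fits that left out 1 arrest array. The adjusted p was between 0.0534 and 0.210 when any 1 late G1 or early S array, G2/M replicate 2 or 3, early G1 replicate 1 or 3, or late S replicate 3 was left out. The call was also lost with the replicate number as a block, in a fit of the arrests alone and with a pseudocount of 16, where the difference was -0.70. SKA3 differed by -2.30 ± 0.66 (adjusted p = 0.135). SKA2, the third subunit, had 2 features that disagreed: the brighter gave -0.37 and the dimmer -2.07 between late G1 and the other arrests.

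**Figure D5:**
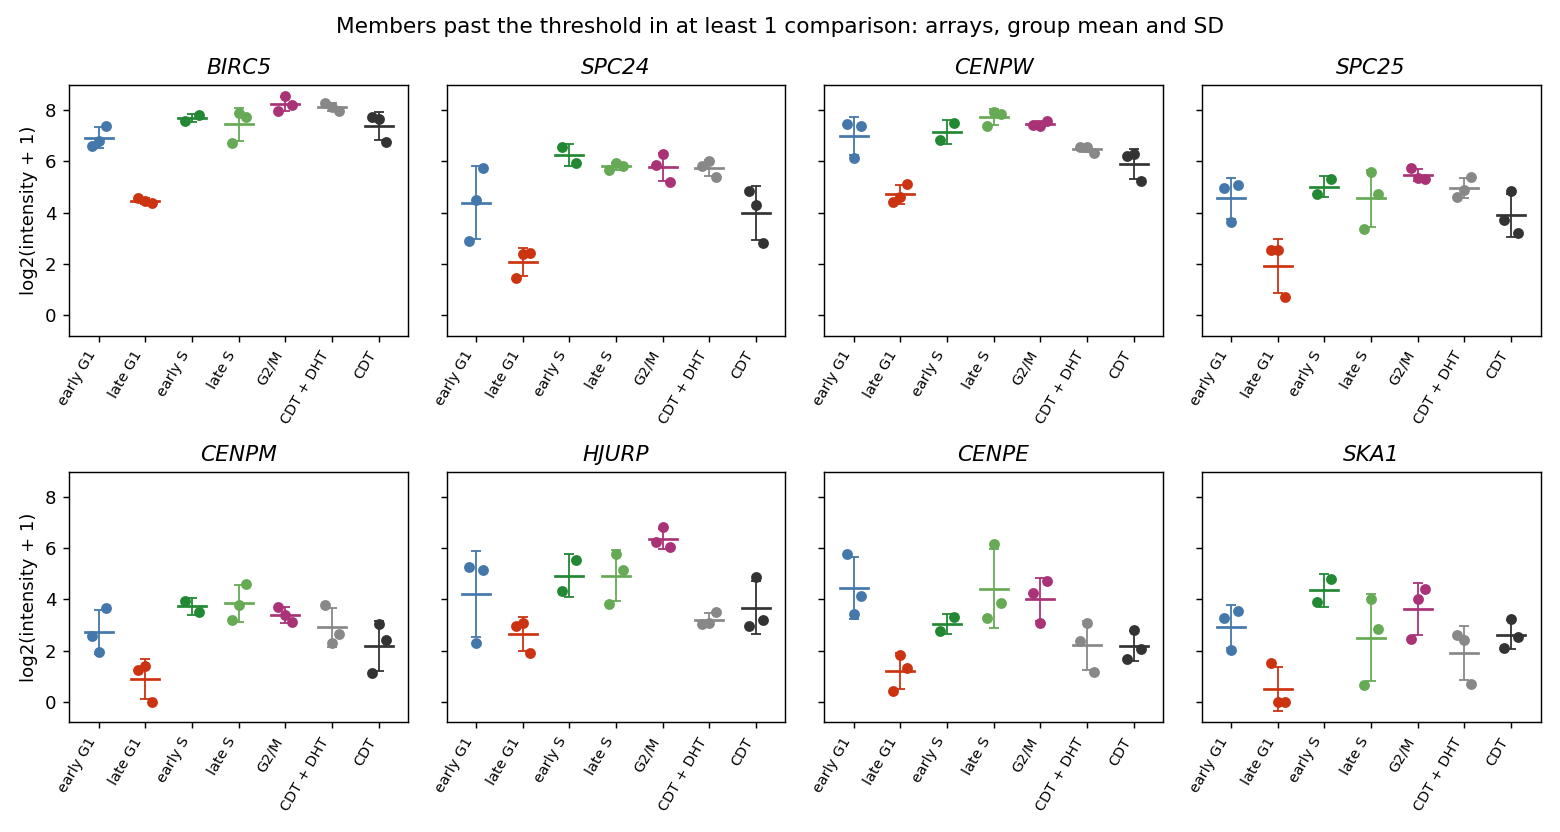
Levels of the 8 members that passed the threshold in at least 1 comparison, log2(intensity + 1), by group. Points are arrays, bars the group mean and whiskers the SD (n = 3, and n = 2 in early S). BIRC5, SPC24, CENPW and SPC25 are lower on all late G1 arrays than on the other 17, and HJURP is highest on the G2/M arrays.

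Survivin, encoded by BIRC5, brings the passenger complex to centromeric histone marks. BIRC5 read 4.59, 4.47 and 4.36 on the late G1 arrays. It read 6.59, 6.78 and 7.38 in early G1, 7.58 and 7.78 in early S, 6.71, 7.86 and 7.74 in late S and 7.95, 8.53 and 8.21 in G2/M, against 8.28, 8.11 and 7.95 in CDT + DHT and 7.71, 7.63 and 6.73 in CDT. The 3 late G1 arrays were close together and below each of the other 17, the nearest of which was early G1 replicate 1, and the G2/M arrays were above the other arrest arrays. The group means were 4.47 ± 0.12 in late G1 and 8.23 ± 0.29 in G2/M (SD, n = 3 each). Late G1 differed from the other arrests by -3.09 ± 0.37 (SE, adjusted p = 0.000245), 8.54-fold lower, and the adjusted p stayed at or below 0.00609 without any single array. The F test gave an adjusted p of 0.00290. The second, dimmer BIRC5 feature gave a late G1 difference of -3.55. BIRC5 was the only member that passed in every comparison of late G1 with another set of arrays.

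CDCA8 encodes borealin, which binds survivin and INCENP. Its levels were 5.0, 4.24 and 4.79 in G2/M. They were 2.37, 1.79 and 3.69 in early G1 and 2.69, 2.40 and 0.01 in late G1, then 4.31 and 3.36 in early S and 0.32, 2.97 and 2.43 in late S, against 3.80, 4.21 and 3.68 in CDT + DHT and 4.21, 4.04 and 1.06 in CDT. The G2/M arrays lay above all but 1 of the other arrays, early S replicate 1, which was just above the lowest of them. G2/M minus the other arrests was 2.16 ± 0.69 (adjusted p = 0.606), and late G1 minus the other arrests -1.56 ± 0.69 (adjusted p = 0.421). INCENP, the scaffold of the complex, varied least of the 3: its group means ran from 6.73 ± 0.11 in late G1 to 7.68 ± 0.45 in early S (n = 2), and 0 comparisons passed.

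SGO1, which guards cohesin at the centromere, was at 1.19, 0.0 and 1.57 in late G1. The other arrests gave 3.90, 3.20 and 3.34 in early G1, 3.36 and 4.18 in early S, 3.17, 4.48 and 1.43 in late S and 3.27, 4.11 and 3.65 in G2/M, with 3.28, 3.14 and 1.39 in CDT + DHT and 1.35, 3.91 and 1.58 in CDT. Late S replicate 3, CDT + DHT replicate 3 and CDT replicate 1 lay within the late G1 range, and CDT replicate 3 just above it. The late G1 difference was -2.57 ± 0.62 (adjusted p = 0.0638), short of the threshold. SGO2, its paralog, differed by -0.03 ± 0.47 (adjusted p = 0.993), and its 2 early S arrays, at 0.72 and 1.53, lay below the 12 other arrest arrays, against 0.63% of all genes.

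Set against late G1 directly, the G2/M arrest had higher means for 35 of 37 members, against 54.1% of all genes. The member median was 2.26 and the median over all genes 0.07. Here 5 members passed, all higher in G2/M, where 0.451% of all genes did. They were BIRC5 (3.76 ± 0.46, adjusted p = 0.000322), CENPW (2.75 ± 0.47, 0.00892), SPC24 (3.68 ± 0.64, 0.00974), SPC25 (3.53 ± 0.65, 0.0126) and HJURP (3.71 ± 0.74, 0.0239). The count was 2 when any 1 G2/M array was left out, 3 without late G1 replicate 1 or 3, and 11 without the 4 arrays that stood apart, where 1.19% of all genes passed. BIRC5 passed in all 6 fits without 1 array. SPC24 did not pass without G2/M replicate 1 (adjusted p = 0.0527), G2/M replicate 2 (0.0736) or late G1 replicate 1 (0.0541). SPC25 did not pass without G2/M replicate 1, 2 or 3 (0.081, 0.0605 and 0.0576) or late G1 replicate 3 (0.0928), and CENPW did not without G2/M replicate 3 (0.0539). The groups did not overlap, with all G2/M arrays above all late G1 arrays, for 25 members (67.6%), against 11.7% of all genes, and 22 were higher at an unadjusted p under 0.05, against 6.09%. KNL1, NDC80 and CENPF had differences as large as those that passed (3.78 ± 0.92, 3.66 ± 0.92 and 3.58 ± 0.82) with larger errors, and adjusted p of 0.0782, 0.0950 and 0.0560. DSN1 and ITGB3BP were the members with lower means in G2/M, with differences of -0.14 ± 0.90 and -0.54 ± 0.79. The member median was 0.71 with a pseudocount of 16.

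Against the mean of the other arrests, G2/M had higher means for 30 members, against 52.7% of all genes. The member median was 0.82 and the median over all genes 0.04. Late G1, with a member mean of 2.65, is among the other arrests and lowers the mean set against G2/M. Early G1, early S and late S had member means of 4.11, 4.39 and 4.14, and G2/M had 4.59. By limma 0 members passed, where 0.0271% of all genes did. At an unadjusted p under 0.05 there were 11 members higher and 1 lower, against 2.06% and 2.93% of all genes. The lower one was ITGB3BP, which read 0.95, 3.04 and 3.16 in G2/M, against 5.40, 2.05 and 4.79 in early G1 and 3.54, 2.36 and 2.87 in late G1, then 4.11 and 4.42 in early S and 3.64, 5.15 and 3.90 in late S. Those arrays overlapped early G1 replicate 2 and the late G1 arrays, and the difference was -1.49 ± 0.63 (adjusted p = 0.937). With a pseudocount of 16, or with a trended and robust variance, 1 member passed. BIRC5, BUB3 and HJURP had all G2/M arrays above the 11 other arrest arrays, against 0.353% of all genes. Set against early G1 alone, G2/M gave a member median of 0.48 and 0 calls, where 0.00543% of all genes passed. Of the members, 4 were higher and 1 lower there at an unadjusted p under 0.05, against 1.54% and 2.13% of all genes. All G2/M arrays were above all early G1 arrays for 5, against 5.21%: BIRC5, BUB3, CDCA8, HJURP and SPC25.

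The comparisons with the CDT and CDT + DHT groups share their control arrays across the arrests, so they are not independent of each other. Against CDT, late G1 was lower in mean for 30 of 37 members, against 57.4% of all genes. The member median was -0.97 and the median over all genes -0.15. BIRC5 alone passed, at -2.89 ± 0.46 (SE, adjusted p = 0.0102), where 0.0977% of all genes passed as lower. That call was lost without CDT replicate 1 (adjusted p = 0.066), CDT replicate 2 (0.1) or late G1 replicate 3 (0.0596), and in a fit of the 2 groups alone (0.363). BIRC5, CENPM, CENPO, CENPW, SKA1, SPC24, SPC25 and ZWINT, 8 members, were lower at an unadjusted p under 0.05, against 6.66% of all genes. With a pseudocount of 16 the member median was -0.31. All late G1 arrays lay below all CDT arrays for 10 members (27%), against 10.1% of all genes, and above them for SGO2, against 5.52%.

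Against CDT + DHT, late G1 had a member median of -0.88, with -0.07 over all genes, and 3 members passed, all lower, where 0.489% of all genes did. BIRC5 differed by -3.64 ± 0.46 (adjusted p = 0.000782), SPC24 by -3.65 ± 0.64 (0.0123) and SPC25 by -3.02 ± 0.65 (0.0429). SPC24 was lost without CDT + DHT replicate 1 or 2 or late G1 replicate 1, with adjusted p of 0.0756, 0.0926 and 0.0544. SPC25 was lost when any 1 of the 6 arrays was left out, with adjusted p between 0.0544 and 0.189, and 0 members passed in a fit of these groups alone. CENPU and SGO2 went the other way, with all late G1 arrays above all CDT + DHT arrays. They are 5.41% of the members, a smaller share than the 10.8% of all genes. For 12 members (32.4%) all late G1 arrays lay below, against 14% of all genes. CENPU read 2.89, 2.35 and 2.62 in late G1, 1.92, 2.02 and 0.08 in CDT + DHT and 2.06, 4.37 and 3.43 in CDT, and its late G1 minus CDT + DHT difference was 1.28 ± 0.82 (adjusted p = 0.512). At the unadjusted threshold 12 members were lower, against 8.5% of all genes. With a pseudocount of 16 the member median was -0.25.

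G2/M exceeded CDT in mean for 32 of 37 members, against 47.2% of all genes. The member median was 1.18, against -0.05 over all genes, and 0.42 with a pseudocount of 16. By limma 0 members passed, where 0.109% of all genes did. At an unadjusted p under 0.05 there were 9 higher and 0 lower, against 2.8% and 4.25% of all genes: BUB3, CENPE, CENPF, CENPW, HJURP, KNL1, NDC80, SPC24 and SPC25. HJURP was the largest, at 2.69 ± 0.74 (adjusted p = 0.270). For 17 members (45.9%) all G2/M arrays were above all CDT arrays, against 6.64% of all genes. Against CDT + DHT the G2/M median was 1.02, with -0.05 over all genes, and 0 members passed, where 0.44% of all genes did. At an unadjusted p under 0.05 there were 12 higher and 1 lower, against 8.88% and 6.21%. CENPU at 3.54 ± 0.82 and HJURP at 3.15 ± 0.74 were nearest the threshold (adjusted p = 0.0635 and 0.0683). All G2/M arrays lay above all CDT + DHT arrays for 17 members, against 15.1% of all genes, and below them for ITGB3BP, against 11.8%. The count of calls was between 0 and 8 over the other settings tried, and the 8, with array weights, stood where 9.06% of all genes passed.

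The other 3 arrests gave 0 calls among the members by limma in the 9 comparisons made with them in front. Against CDT, 0.00543% of all genes passed in early G1, 0.0326% in early S and 0.0977% in late S, and the member medians were 0.52, 0.79 and 0.46. The members higher at an unadjusted p under 0.05 numbered 3, 4 and 8, against 2.14%, 2.57% and 2.6% of all genes. CENPQ, of the CENP-OPQUR complex, differed by 2.96 ± 0.85 between late S and CDT (adjusted p = 0.395), with 4.13, 5.18 and 4.87 in late S and 2.69, 2.58 and 0.02 in CDT. CENPW was higher on all late S arrays than on all CDT arrays, by 1.80 ± 0.47 (adjusted p = 0.314). All arrays were above all CDT arrays for 9 members in late S, against 4.01% of all genes, for 7 in early S, against 11%, and for 1, CENPE, in early G1, against 3.21%. With array weights 2 members passed in late S against CDT, 5 against CDT + DHT and 4 against the other arrests, where 1.11%, 9.64% and 4.72% of all genes passed.

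Against CDT + DHT, 0%, 0.00543% and 0.0706% of all genes passed in early G1, early S and late S, and the member medians were 0.59, 0.63 and 0.61. The members that differed at an unadjusted p under 0.05 numbered 5, 4 and 7, against 8.07%, 7.62% and 10.2% of all genes. CENPU had the largest early S difference, 3.95 ± 0.92 (adjusted p = 0.296), with 4.72 and 5.87 in early S. Its late S arrays gave 3.47, 6.24 and 4.13, a difference of 3.28 ± 0.82 (adjusted p = 0.159). Against the other arrests, 0%, 0% and 0.0271% of all genes passed, and the member medians were 0.23, 0.44 and 0.06. Late G1 is among the other arrests each time, and its low member values lower the mean set against these groups. There were 0, 4 and 5 members at an unadjusted p under 0.05, against 2.47%, 3.88% and 6.92%. INCENP was higher on both early S arrays than on the 12 other arrest arrays, at 8.0 and 7.37, against 1.07% of all genes, with a difference of 0.71 ± 0.39 (adjusted p = 0.950).

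DHT for 3 h in CDT medium gave 0 calls among the members. CDT + DHT minus CDT had a member median of 0.02, with -0.10 over all genes. Of the 37 means, 19 were higher, against 44.8% of all genes. By limma 0% of all genes passed as well. At an unadjusted p under 0.05 CENPQ (2.30 ± 0.85) and SPC24 (1.75 ± 0.64) were higher and CENPU (-1.95 ± 0.82) lower, against 6.86% of all genes in either direction, each with an adjusted p of 0.696. All CDT + DHT arrays lay above all CDT arrays for 5 members, BIRC5, CENPQ, CENPW, MAD2L1 and SPC24, against 7.81% of all genes, and below them for CENPF and CENPU, against 5.95%.

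A further list of 31 kinetochore and centromere genes outside the 38 was read for comparison, and 27 of them were measured. Between late G1 and the other arrests 2 of the 27 passed, both lower, where 0.69% of all genes did. The median was -1.04 over the 27 and -0.09 over all genes. Of the 27, 4 had higher means in late G1, among them KIF2C, which read 7.22, 7.25 and 7.44 there. Between G2/M and late G1 the same 2 genes passed, both higher, where 0.451% of all genes did, with medians of 1.37 and 0.07. The 2 that passed were PLK1, the mitotic kinase that acts at kinetochores and centrosomes, and AURKB, the catalytic subunit that the chromosomal passengers carry. PLK1 read 2.40, 2.03 and 1.16 in late G1 and 6.93, 8.30 and 7.17 in G2/M, against 6.94, 6.81 and 6.52 in CDT + DHT and 6.11, 6.24 and 5.35 in CDT. Late G1 was below all other arrays and G2/M above all other arrest arrays, with a G2/M minus late G1 difference of 5.60 ± 0.55 (adjusted p = 4.92e-05). PLK1 was also the 1 gene of the list that passed between G2/M and the other arrests, by 3.26 ± 0.44 (adjusted p = 0.00407). In that comparison 0.0271% of all genes passed in either direction. AURKB read 1.77, 3.12 and 3.17 in late G1 and 4.95, 5.99 and 5.42 in G2/M, against 4.78, 4.68 and 3.74 in CDT + DHT and 3.91, 4.37 and 3.63 in CDT, and differed from the other arrests by -2.26 ± 0.48 in late G1 (adjusted p = 0.0323). INCENP, BIRC5 and CDCA8, its partners among the members, had late G1 differences of -0.48, -3.09 and -1.56, and of these BIRC5 passed.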

How the data were processed

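LNCaP cells were profiled on 20 Affymetrix human gene arrays. RNA was extracted with Trizol and amplified and labelled with a NuGEN kit, per the labels' protocols. The authors deposited linear intensities, 1 column per array, and the submitters' processing notes name Affymetrix Expression Console 1.1. How probes were summarised, and whether arrays were normalized to each other, was not given in the sources used here. Intensities as deposited were taken as log2(intensity + 1) with no further normalization. Of 33297 features, 19460 carry 1 gene symbol in the platform's annotation, 1754 carry several and were not used, and 12083 are not listed. Each gene took its brightest feature, leaving 18417 genes. limma 3.58.1 (R 4.3.3) fitted all 20 arrays with 1 coefficient per group (lmFit, eBayes, two-sided), for 18 comparisons and an F test among the 5 arrests, with Benjamini-Hochberg adjustment and a threshold of 0.05. The fitting script was tested on simulated data. Groups came from the labels. Replicate numbers pair nothing in the labels and were not a block. Other settings were quantile normalization, centring, a pseudocount of 16, a filter on dim genes, averaged features, a trended and robust variance, array weights, a replicate block, fits of only the groups compared, and leaving out arrays.

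Members were named with their values on all arrays if they passed the threshold in any comparison, and otherwise in order of the F test's p until 14 were reached. Some other members, such as BUB3, CENPQ, CENPU, INCENP, ITGB3BP and SGO2, were given with part of their values, outside this rule. Promoters came from RefSeq (GRCh38.p14). The members and lists were chosen with earlier results of these data known.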

Additional observations from a re-analysis of the deposited data

Results flagged for a closer look

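Differences between arrests past the threshold (limma, Benjamini-Hochberg over all genes) are collected here, since each is a test of a difference between groups that share medium and DHT. Late G1 minus the mean of the other arrests was -3.09 for BIRC5, -2.62 for CENPW, -3.46 for SPC24, -2.96 for SPC25, -2.53 for CENPM, -2.77 for CENPE and -2.85 for SKA1. G2/M minus late G1 was 3.76 for BIRC5, 2.75 for CENPW, 3.68 for SPC24, 3.53 for SPC25 and 3.71 for HJURP. The late G1 arrays are in both sets of values. Single outlying arrays were not tested for, as no group has more than 3 arrays.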

How the results depend on the processing

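Groups of 2 or 3 arrays limit the precision. The calls kept their direction under the settings tried; differences of members that did not pass, some of them near 0, were not followed by setting. BIRC5, CENPW and SPC24 in late G1 against the other arrests passed under all 10 settings and all 14 fits without 1 array. CENPE and SKA1 were lost there with a pseudocount of 16, with the replicate block and with only the compared groups, and CENPM with a pseudocount of 16. CENPE, SKA1 and CENPM are dimmer than the median gene, so the filter on dim genes, which kept 23 members, left them untested. With that filter 7 members passed there, where 2.23% of all genes kept did, and 4 of the 7 were called in the main fit. With a pseudocount of 16 the member median was -0.31 in late G1 and 0.42 in G2/M against CDT, -0.25 and 0.37 against CDT + DHT, -0.64 for late G1 against the other arrests and 0.71 for G2/M against late G1; the larger pseudocount shrinks the differences of dim genes by construction.

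Shares in brackets are of all genes called under the same setting. A pseudocount of 16 gave 1 call in late S against CDT (0.195%), 2 in G2/M against CDT + DHT (1.76%) and 1 in G2/M against the other arrests (0.0977%). G2/M against CDT + DHT also counted 2 with quantile normalization (0.668%), with centring (0.679%), with the filter on dim genes (2.42%) and with a trended and robust variance (1.89%), 1 without the 4 arrays that stood apart (0.668%), 6 with only the compared groups (2.19%) and 8 with array weights (9.06%). Late G1 against the other arrests counted 11 with a trended and robust variance (1.05%), 15 with array weights (2.05%) and 19 without the 4 arrays (2.2%). G2/M against late G1 counted 9 (0.749%), 13 (1.5%) and 11 (1.19%) in the same order. With only the compared groups it counted 2 (0.109%), BIRC5 and KNL1, of which KNL1 was not called in the main fit. CENPW, SPC24, SPC25 and HJURP were lost in that limma fit, with adjusted p of 0.0647, 0.0545, 0.0855 and 0.0544. A trended and robust variance gave 1 call in G2/M against the other arrests (0.0652%). Array weights gave 8 in late G1 against CDT + DHT (5.86%), 2, 5 and 4 in late S against CDT, CDT + DHT and the other arrests (1.11%, 9.64% and 4.72%), and 10 in the F test (1.94%), which counted 5 without the 4 arrays (0.375%) and 1 with only the compared groups (0.076%). With only the compared groups, late G1 counted 0 against CDT and 0 against CDT + DHT (0% each). Fewer arrays set the spread in such fits. The causes of all these changes were not tested.

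Leaving out 1 array, the counts ran from 0 to 1 for late G1 against CDT, 1 to 2 against CDT + DHT, 3 to 10 against the other arrests, 2 to 4 for G2/M against late G1 and 1 to 4 for the F test, and were 0 elsewhere. The member median of late S against the other arrests ran from -0.31 to 0.70. An early S array left out leaves 1, assumed to vary like the other groups.

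The replicate number as a block gave 1 call in late G1 against CDT, 2 against CDT + DHT, 5 against the other arrests, 5 in G2/M against late G1 and 2 in the F test. Deviations from the group means correlated between same-numbered arrays from -0.68 to 0.66 (57 pairs, median -0.025). Between different-numbered arrays they correlated from -0.62 to 0.56 (114 pairs, median -0.029). With groups this small, these values cannot decide whether the numbers pair the arrays. Quantile normalization moved the median of all genes by 0.15 in late G1 against CDT, 0.13 in late G1 against the other arrests and -0.12 in G2/M against late G1, and centring by 0.14 in late G1 against CDT.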
